A study of Mus musculus with 16 samples.

Results

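The 39 genes described here encode chromatin regulators, the proteins that move nucleosomes along DNA or write, read and remove chemical marks on histones and on DNA. They were taken by gene symbol, not by their values, and all 39 were present among the 20409 genes of the count table. They comprise 8 CHD remodellers, 7 BAF subunits, 5 further remodelling ATPases and scaffolds, 5 acetylation writers, readers and corepressors, 6 genes of histone methylation, 3 histone demethylases and 5 genes of DNA methylation. Remodellers use ATP to slide or evict nucleosomes, histone acetylation generally marks active genes, and Polycomb methylation of histones and DNA methylation are associated with silencing. In neural stem cells these enzymes are known to set which genes stay on during division and which are opened when neurons form. Fmr1 encodes FMRP, an RNA-binding protein lost in fragile X syndrome. FMRP is known to bind many long brain mRNAs and to restrain their translation, and many of the 39 mRNAs have been reported among those it binds in brain.

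Adult neural stem cells from the dentate gyrus, a part of the hippocampus where neurons form throughout life, were compared between genotypes. The wild-type (WT) cultures came from male FVB/N littermates aged 8 to 10 weeks. The knockout (KO) cultures came from male FVB/N mice of the same age labelled Fmr1-/y, males without a working copy of this X-linked gene. Each genotype had 4 independently isolated cultures, and each culture gave 1 cytoplasmic RNA library and 1 ribosome footprint library from the same lysate, 16 libraries in 4 groups of 4. How many mice went into a culture is not given in the sources used here. All cultures were grown in 20 ng/ml EGF and 20 ng/ml FGF2, and all were treated with 100 µg/ml cycloheximide, which stalls translating ribosomes, for 10 min. Ribosome footprints are the mRNA fragments that ribosomes shield from nuclease, so their number reports how much an mRNA is occupied by ribosomes. Levels below are CPM, counts scaled to library size with TMM factors within an assay, and differences are on the log2 scale with standard errors (SE).

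The libraries held 5330018 to 6580305 counts in RNA and 9397586 to 17147612 in footprints. Fmr1 itself, the check of the labels, had 129 to 149.8 CPM of footprints in WT and 12.7 to 27.0 in KO (log2 difference -2.93 ± 0.22 SE, adjusted p = 0.014, edgeR quasi-likelihood test). A fit blocked on replicate left this difference at -2.93 with an adjusted p of 0.14 (edgeR). Its RNA was 27.4 to 107 CPM in WT and 3.35 to 30.9 in KO, with KO 2 above WT 4 (-1.99 ± 0.67 SE, adjusted p = 1.0). Blocked on replicate, the RNA difference was -2.17 ± 0.24 SE with an adjusted p of 0.11 (edgeR). Neither of these RNA tests therefore called the targeted gene itself. Of 14 neural stem and progenitor markers, 13 averaged over 1 CPM in both assays, and the 14 summed to 7430 to 11550 CPM in RNA. The 6 microglial markers summed to at most 1.3 CPM in any library. Other lineages were present: 8 oligodendrocyte lineage markers summed to 1113 to 1833 CPM in RNA and 1270 to 2088 in footprints. For 8 neuron and neuroblast markers the sums were 263 to 717 CPM in RNA and 942 to 1872 in footprints. Cultures numbered 1 and 2 in both genotypes differ from those numbered 3 and 4 in a labelled property, the length of the random identifier in the footprint libraries (5 nt against 8 nt). The summed astrocyte markers differ along the same split: 226 to 464 CPM in RNA of replicates 1 and 2, and 32.7 to 50.3 in replicates 3 and 4. The 13 neural stem and progenitor markers tested in RNA had a median log2 difference of -0.48 along it, with 4 called lower and 0 higher. In cultures of mixed cells, fewer cells of a type and less RNA per cell cannot be told apart.

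The name long mRNAs held for nearly all of them. Transcript sequences were not used here, so length was read from the tables as the counts a gene received per unit of length-scaled abundance (TPM), relative to the median gene. The 38 members with enough RNA reads had a median relative length of 4.92. The longest was Trrap, the scaffold of several acetyltransferase complexes, at 10.8, followed by Ep400 at 8.46 and Chd7 at 8.27. When all genes were ordered by length and divided into 4 equal classes, 35 members were in the longest class and none in the shorter 2. The exceptions, one class below, were Smarca2 (1.72), Brd3 (1.83) and Ezh1 (1.83). The Smarca2 value is unsteady between libraries. Its RNA was 178 CPM and 41 TPM in WT 1, but 122 CPM and 58 TPM in WT 2.

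The sequence in front of the genes was CG-rich. In the 250 bases before each RefSeq start (GRCm38.p6), the 31 members with an entry had 41 windows with a median of 23 CG dinucleotides, ranging from 1 to 51, against a median of 17 in the 10790 windows of all genes measured in both assays. At least 1 CG was present in 99.2% of the latter windows, and in 92.1% of the 32851 windows of the whole table. CG is the pair of bases that the Dnmt enzymes methylate and that the Tet enzymes act on. Smarca5 and Smarca1, the 2 mouse ISWI ATPases, are shown because they stood far apart in RNA level and also differ in this respect. Each window reads 5′ to 3′ on the gene's strand, with CG in capitals, and has 29 CG for Smarca5 (chr8:80739460-80739709, minus strand) and 6 for Smarca1 (chrX:47892614-47892863, minus strand).
Smarca5: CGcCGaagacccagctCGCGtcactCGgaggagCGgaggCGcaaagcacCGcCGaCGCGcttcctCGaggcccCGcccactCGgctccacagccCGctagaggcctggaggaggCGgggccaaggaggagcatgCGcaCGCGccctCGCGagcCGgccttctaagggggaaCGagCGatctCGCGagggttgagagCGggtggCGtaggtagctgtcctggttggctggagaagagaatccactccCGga
Smarca1: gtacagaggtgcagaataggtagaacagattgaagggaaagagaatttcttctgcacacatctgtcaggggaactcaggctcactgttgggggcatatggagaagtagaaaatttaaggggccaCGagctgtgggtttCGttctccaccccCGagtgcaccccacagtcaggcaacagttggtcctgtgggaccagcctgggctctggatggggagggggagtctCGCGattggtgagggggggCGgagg
The count of CG is a description of these windows only, and its relation to RNA level over the members was not tested. Tet2, with the most CG at 51, averaged 8.1 TPM of RNA, and Kdm5c, with 10 CG, averaged 74.9 TPM. DNA methylation was not measured.

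Levels per unit length, given as the deposited TPM averaged over 8 libraries, spanned a wide range. In RNA the highest member was Brd2, a reader of acetylated histones, at 221 ± 20.6 TPM (SD, n = 8). Next were Chd4, the ATPase of the NuRD complex, at 174 ± 42.5 TPM, and Smarca4, the main ATPase of BAF, at 135 ± 16.1 TPM. Smarcc1, a BAF core subunit, stood at 114 ± 22.2 TPM and Dnmt1, which copies DNA methylation at replication, at 94.5 ± 20.5 TPM. In footprints the order began with Chd4 at 106 ± 18.1 TPM, Smarcc1 at 86.5 ± 8.26 TPM and Ezh2, the Polycomb methyltransferase of dividing cells, at 77.4 ± 18.6 TPM. The lowest RNA levels were those of Smarca1 (0.5 ± 1.07 TPM), Chd9 (4.25 ± 3.06 TPM) and Tet1 (5.38 ± 2.83 TPM), and in footprints those of Smarca1 (1.88 ± 2.23 TPM), Chd3 (2.0 ± 1.69 TPM) and Tet1 (2.5 ± 0.53 TPM). Neighbours in this order mostly did not separate: only 3 of 38 neighbouring pairs in RNA and 4 of 38 in footprints kept the same order in all 8 cultures. Smarca1 had 77 RNA counts in all 8 libraries together and was too low to be tested in RNA. The next lowest, Ezh1, had 681 RNA counts and 794 footprint counts.

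Many members are near relatives that can fill the same place in a complex, and the cells held most such pairs at unequal levels. The ratio of the first to the second gene was computed per culture from TPM + 1 for 15 pairs in each assay (exact sign-flip permutation test over 8 cultures, two-sided, smallest possible p = 0.0078, Benjamini-Hochberg over 30 tests). In RNA 12 of 15 pairs passed the adjusted threshold of 0.05, and in footprints 13 of 15. Smarca5 averaged 49.6 TPM in RNA and 62.75 TPM in footprints, and Smarca1 0.5 and 1.88 TPM, too near 0 in a table of whole numbers for a fold to be given. Chd4 exceeded Chd3, the other large NuRD ATPase, by 16.8-fold in RNA, and in footprints they averaged 106 and 2.0 TPM. Ezh2 exceeded Ezh1, its counterpart in non-dividing cells, by 9.25-fold in RNA, and in footprints they averaged 77.4 and 3.0 TPM. The footprint levels of Chd3 and Ezh1 are likewise too near 0 for a fold to be given. All 3 of these differences had the same direction in 8 of 8 cultures in both assays (adjusted p = 0.012 each, exact permutation). Within BAF, Smarca4 was above Smarca2 by 4.14-fold in RNA and by 2.11-fold in footprints, and Arid1a was above Arid1b by 1.93-fold in both. The Smarca2 folds are uncertain, since its TPM rest on its unsteady length. Smarcc1 was above Smarcc2 by 1.44-fold in RNA, in 7 of 8 cultures, and by 2.32-fold in footprints.

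Of the called pairs, the second gene was the higher in 3 pairs in RNA and in 2 in footprints. Crebbp exceeded its fellow acetyltransferase Ep300 in both assays (ratio Ep300 to Crebbp 0.599 in RNA and 0.818 in footprints), and Chd6 exceeded Chd9 (0.305 and 0.559). Kdm6b, a demethylase of the Polycomb mark, exceeded Kdm6a in RNA (ratio 0.189), whereas in footprints the ratio was 0.954 and did not pass (adjusted p = 0.66, exact permutation). Among the DNA methylation genes, Dnmt1 was above the de novo enzyme Dnmt3a by 2.12-fold in RNA and 2.50-fold in footprints, and Tet3 was above Tet2 by 5.91-fold in RNA and by 1.57-fold in footprints. Brd2 was above Brd3 by 2.83-fold in RNA and 1.31-fold in footprints. Chd8 and Chd7 did not separate in either assay (0.819 and 1.23). Chd1 and Chd2 (1.09) and Tet2 and Tet1 (1.31) did not pass in RNA but did in footprints (1.69 and 1.53). Footprints of Tet2, Chd9 and Tet1 averaged 4.5, 3.38 and 2.5 TPM, so their footprint ratios are coarse.

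**Figure D1:**
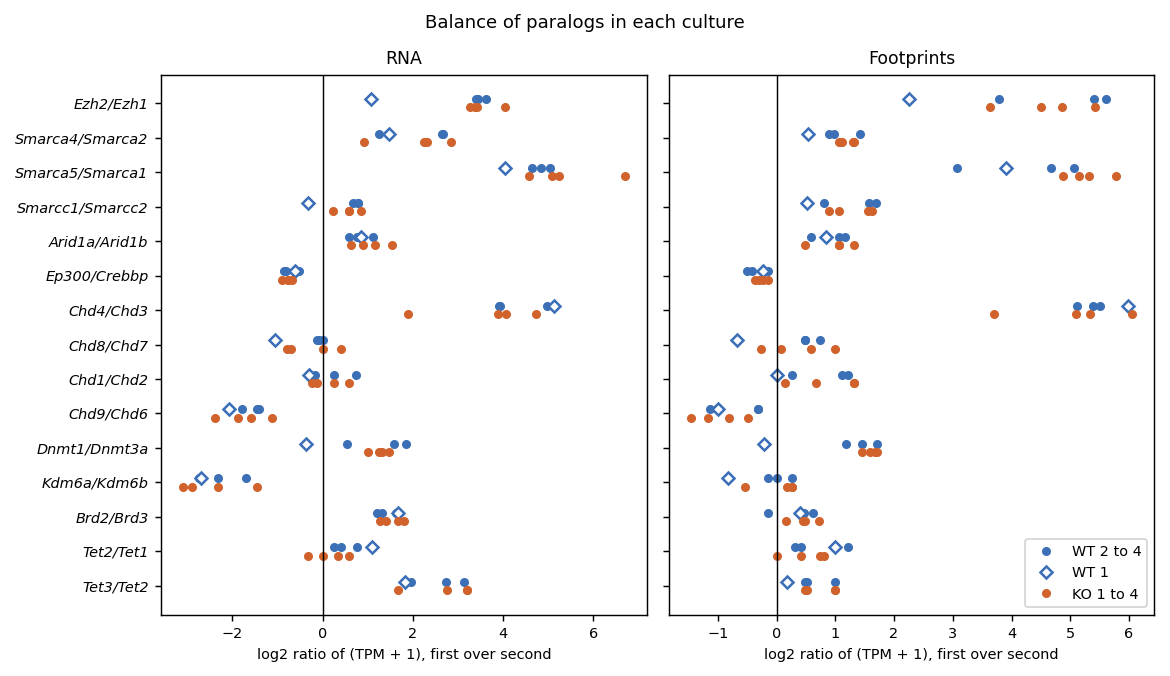
Log2 ratio of TPM + 1 of the first over the second gene of 15 paralog pairs in RNA (left) and footprints (right). Each symbol is 1 culture: filled blue circles are WT 2 to 4, the open diamond is WT 1 and orange circles are KO 1 to 4. The genotypes overlap in all 15 pairs in both panels, and WT 1 lies lowest in both panels for 5 pairs, Ezh2/Ezh1, Smarcc1/Smarcc2, Chd8/Chd7, Chd1/Chd2 and Dnmt1/Dnmt3a.

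Between genotypes, 0 of 30 ratios had an unadjusted p under 0.05 (two-sided exact permutation test, 4 against 4, smallest possible p = 0.029). An adjusted p under 0.05 would need 18 of the 30 tests at that smallest p, so the adjusted outcome says nothing about whether the balances differ. The pair with the smallest p was Smarca5 to Smarca1 in footprints. Its log2 ratio was 3.91, 3.07, 4.67 and 5.07 in WT cultures 1 to 4 and 5.32, 5.15, 5.78 and 4.88 in KO cultures 1 to 4. The KO mean was 1.11 higher (exact permutation p = 0.057, adjusted p = 0.90), and KO 4 lay below WT 4. Smarca1 footprints were whole numbers from 0 to 7 TPM, so this ratio is coarse.

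Ribosome footprints relative to RNA varied widely among the members and were on the low side of all genes. Footprints and RNA of a culture were compared in one model with the culture as a block, so that 0 is near the typical gene. Of 38 members, 24 were lower in footprints than in RNA, 7 were higher and 7 did not pass the threshold (edgeR quasi-likelihood test, adjusted p under 0.05). Over all 10863 genes tested, 39% were called lower and 41.7% higher, so the members were called lower more often (63.2%) and higher less often (18.4%) than genes at large; this difference in shares was not tested. The members' median was -0.63, and the median of all genes was 0.04. Long genes in general stood low: the longest class of all genes had a median of -0.55 with 60.3% called lower, and the 35 members in that class had a median of -0.51.

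**Figure D2:**
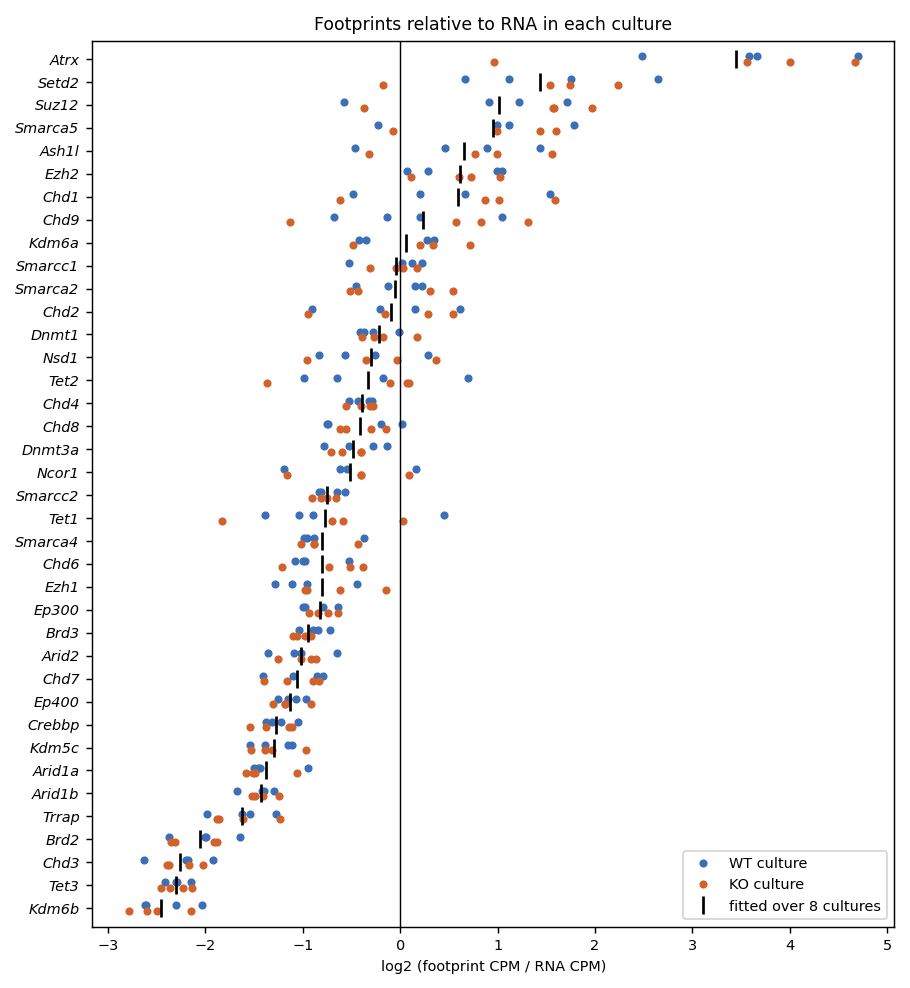
Log2 ratio of footprint CPM to RNA CPM for 38 members, ordered by the fitted value (black tick). Each circle is 1 culture, blue for WT and orange for KO, and CPM are scaled over all 16 libraries together. Atrx stands apart at the top with a fitted value of 3.45, and Kdm6b, Tet3, Chd3 and Brd2 form the low end below -2.

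The 7 members with more footprints than RNA were Atrx, Setd2, Suz12, Smarca5, Ash1l, Ezh2 and Chd1, and 4 of them act in histone methylation. Atrx, a remodeller that deposits histone H3.3 at heterochromatin and telomeres, had RNA levels of 29.7, 52.7, 23.4 and 9.71 CPM in WT 1 to 4 and of 22.35, 176.6, 20.35 and 10.7 CPM in KO 1 to 4. Its footprint levels were 343, 256.3, 244 and 222 CPM in WT and 313, 295, 212 and 242 CPM in KO. The footprint value exceeded the RNA value in all 8 cultures, and Atrx footprints were 10.9-fold RNA relative to the typical gene (log2 3.45 ± 0.37 SE, adjusted p = 2.5e-06, edgeR).

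Setd2, which trimethylates histone H3 at lysine 36 in transcribed genes, had 84.5, 115, 47.8 and 27.9 CPM of RNA in WT and 57.1, 206, 50.6 and 35.5 CPM in KO. Its footprints were 167, 159, 139.7 and 151 CPM in WT and 165, 157, 129 and 147 CPM in KO, so the RNA varied much more than the footprints. The fitted difference was 1.44 ± 0.26 SE (adjusted p = 0.000235, edgeR), and KO 2 was the only culture with a ratio below 0. Suz12, a core Polycomb subunit, had 34.2, 131, 57.4 and 39.1 CPM of RNA in WT and 40.8, 113, 44.4 and 31.7 CPM in KO. Its footprints were 58.7, 76.0, 116 and 110.3 CPM in WT and 106, 74.4, 115 and 109 CPM in KO. Both replicate 2 cultures had more Suz12 RNA than footprints and the other 6 had less, with a fitted difference of 1.01 ± 0.28 SE (adjusted p = 0.0053, edgeR).

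The other 4 were Smarca5 at 0.96, Ash1l, which methylates histone H3 at active genes, at 0.66, Ezh2 at 0.61 and Chd1, a remodeller linked to transcription elongation, at 0.59. These last 4 had SE of 0.12 to 0.24. For Smarca5, Ash1l and Chd1 the ratio was below 0 in both replicate 2 cultures and above 0 in the other 6. For Ezh2 it was above 0 in all 8. Among the histone methylation genes only Ezh1 was lower (-0.81 ± 0.14 SE), and Nsd1, a writer of dimethylated lysine 36, did not pass (-0.30 ± 0.14 SE). All 7 members called higher had more RNA in both replicate 2 cultures than in each of the other 6. Without both replicate 2 cultures, 8 members were higher and 24 lower, and the members' median was -0.50.

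**Figure D3:**
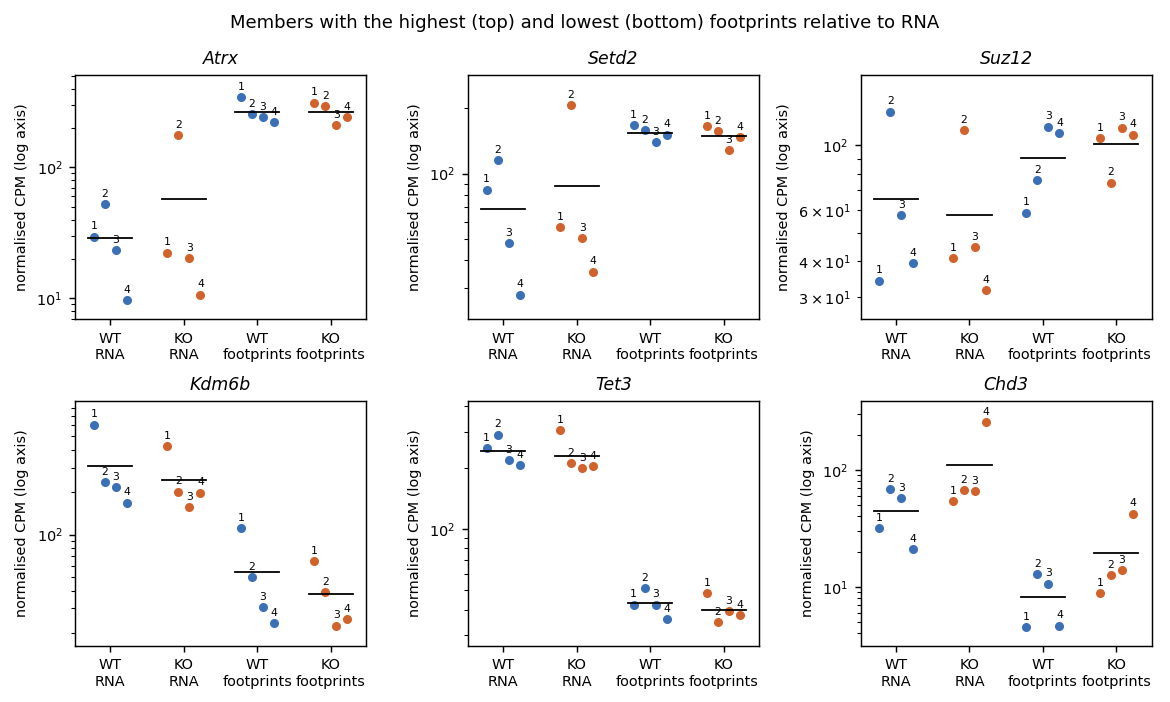
Normalised CPM on a log axis for the 3 members with the highest (top row) and the 3 with the lowest (bottom row) footprints relative to RNA. Each circle is 1 library numbered by replicate, blue for WT and orange for KO, and the line is the mean of 4. Atrx footprints lie at 212 to 343 CPM in both genotypes while its RNA ranges from 9.71 to 176.6, and for Kdm6b, Tet3 and Chd3 the footprints lie below the RNA of the same culture.

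At the low end stood Kdm6b, Tet3 and Chd3. Kdm6b had 606.5, 236, 217 and 169 CPM of RNA in WT and 425, 202, 158 and 199 CPM in KO, against footprints of 112, 49.9, 30.3 and 23.6 CPM in WT and 64.9, 38.8, 22.5 and 25.0 CPM in KO. Culture 1 was highest in both assays and both genotypes, and the footprints were 0.183-fold RNA (log2 -2.45 ± 0.10 SE, adjusted p = 2.9e-10, edgeR). Tet3, the most abundant Tet dioxygenase here in RNA, had 249, 290.2, 218 and 206 CPM of RNA in WT and 306, 209.6, 199 and 203 CPM in KO. Its footprints were 42.3, 51.0, 42.3 and 36.0 CPM in WT and 48.2, 34.8, 39.4 and 37.5 CPM in KO. The Tet3 ratio was among the most even of the members, -2.45 to -2.13 over 8 cultures (fitted -2.30 ± 0.07 SE, adjusted p = 5.0e-11, edgeR).

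Chd3 had 32.0, 68.1, 57.4 and 21.1 CPM of RNA in WT and 54.2, 67.0, 65.9 and 255.5 CPM in KO, against footprints of 4.503, 12.9, 10.7 and 4.65 CPM in WT and 8.87, 12.6, 13.9 and 42.3 CPM in KO. KO 4 was the highest of all 8 cultures in both assays. The ratio nevertheless stayed between -2.64 and -1.92 in every culture (fitted -2.26 ± 0.09 SE, adjusted p = 4.0e-10, edgeR).

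By role, the 5 acetylation writers, readers and the corepressor were all called lower: Brd2 at -2.06, Crebbp at -1.27, Brd3 at -0.95, Ep300 at -0.82 and Ncor1, the nuclear receptor corepressor, at -0.51. None of the 7 BAF subunits had a positive value, and 5 were called lower: Arid1b at -1.43, Arid1a at -1.38, Arid2 at -1.02, Smarca4 at -0.80 and Smarcc2 at -0.75. Smarca2 (-0.05) and Smarcc1 (-0.04) lay near 0. Of the CHD remodellers, 5 were lower, with Chd3 followed by Chd7 at -1.06, Chd6 at -0.81, Chd8 at -0.41 and Chd4 at -0.39, while Chd2 (-0.10) and Chd9 (0.23) did not pass. The remaining ATPase Ep400 and the scaffold Trrap were lower, at -1.13 and -1.63. Kdm5c, a demethylase of lysine 4 encoded on the X chromosome, was lower at -1.30, and Kdm6a did not pass (0.06). In DNA methylation, Tet3, Tet1 (-0.77), Dnmt3a (-0.48) and Dnmt1 (-0.22) were lower and Tet2 (-0.33) did not pass. Smarca1, too low in RNA for this fit, had more footprints (643 counts) than RNA (77 counts) over the 8 cultures.

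In footprints, no member differed between KO and WT past the threshold (0 of 39, edgeR quasi-likelihood test, with 2 at unadjusted p under 0.05, 0 by limma-voom and 1 by DESeq2, which called 0.715% of all genes). The background of the edgeR test was as sparse, with 0.0262% of 11472 genes called higher in KO and 0.00872% called lower. The members' median log2 difference was -0.04, against 0.01 for all genes, and 30 of 39 lay within 0.2 of 0. The median SE was 0.14, and for 29 members the 95% interval lay wholly inside a 1.5-fold change in either direction. Among them were Chd4 (-0.13 to 0.39), Chd8 (-0.25 to 0.22), Setd2 (-0.29 to 0.20), Atrx (-0.31 to 0.29) and Arid1b (-0.36 to 0.20). The intervals of 3 members went beyond a 2-fold change, those of Chd3, Smarca1 and Kdm6b.

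**Figure D4:**
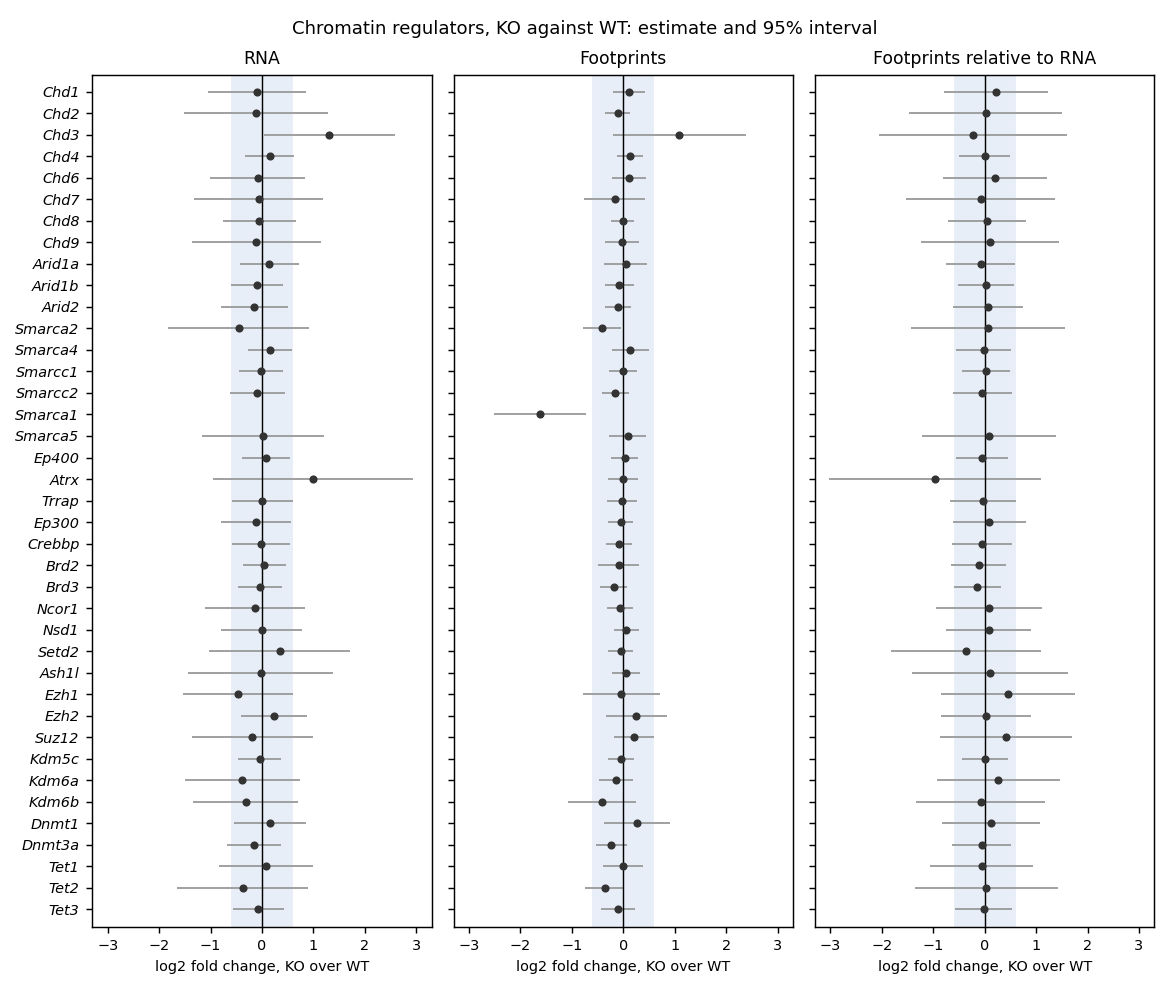
Log2 fold change of KO over WT with its 95% interval for each member in RNA, in footprints and in footprints relative to RNA (the assay by genotype interaction). The shaded band marks a 1.5-fold change, and Smarca1 was tested in footprints only. The footprint intervals are the narrowest, with 29 of 39 inside the band against 7 of 38 in each of the other 2 panels. Identifier length was a term for footprint libraries only, so the intervals of the panels come from unlike models.

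Smarca1 had the smallest p in footprints. It was at 8.13, 22.8, 4.36 and 3.46 CPM in WT 1 to 4 and at 3.23, 4.46, 1.49 and 1.95 CPM in KO 1 to 4. KO was lower in 4 of 4 pairs of equal number, but KO 2 lay above WT 3, so the groups overlapped. The fitted difference was -1.63 ± 0.39 SE (adjusted p = 0.57, edgeR). DESeq2 gave -1.64 with an adjusted p of 0.025, and over the other alternatives the adjusted p ran from 0.36 to 1.0. Without WT replicate 2 the difference was -1.14.

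Smarca2, the BAF ATPase that is the alternative to Smarca4, had 118, 96.9, 42.6 and 38.1 CPM of footprints in WT and 59.4, 74.0, 37.9 and 35.9 CPM in KO (-0.41 ± 0.16 SE, adjusted p = 1.0, edgeR). KO was lower in 4 of 4 pairs, with log2 differences of -0.98, -0.39, -0.17 and -0.09. Tet2 had 43.7, 37.0, 22.6 and 25.6 CPM in WT and 37.4, 23.7, 18.7 and 19.9 CPM in KO (-0.36 ± 0.16 SE), again lower in 4 of 4 pairs with overlapping groups. Chd3, whose levels are given above, was at 1.08 ± 0.56 SE, and this was 0.53 without KO replicate 4. In all, 5 of 39 members (Smarca1, Smarca2, Tet2, Smarcc2 and Setd2) were lower in KO in 4 of 4 pairs, or 12.8%, where 6.85% of all genes were, and none was higher in 4 of 4 pairs, where 7.61% of all genes were.

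In RNA, none of the 38 members tested passed either (edgeR quasi-likelihood test, with 1 at unadjusted p under 0.05, 0 by limma-voom and 0 by DESeq2, which called 0.18% of all genes). Of 11097 genes, in the edgeR test, 0.00901% were called higher in KO and 0.0% lower. The members' median was -0.05, against 0.01 for all genes, but the RNA libraries of a group differed more, with a median SE of 0.33, and 7 members had a 95% interval inside a 1.5-fold change. Chd3 had the largest difference and the smallest p, 1.31 ± 0.57 SE (adjusted p = 1.0). With its single high library, KO 4, left out this was 0.48, and the same-numbered differences were 0.75, -0.02, 0.20 and 3.58.

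Atrx was next at 0.99 ± 0.87 SE, again set by 1 library: the 176.6 CPM of KO 2 gave that pair a difference of 1.74, the other pairs had -0.40, -0.20 and 0.13, and without KO replicate 2 the estimate was -0.70. Ezh1 had 34.0, 14.8, 8.90 and 9.55 CPM in WT and 15.7, 15.6, 7.65 and 9.60 CPM in KO (-0.46 ± 0.47 SE), with WT 1 the highest. Without WT replicate 1 the Ezh1 estimate was 0.14. Smarca4 had 539.6, 606, 676 and 771.5 CPM in WT and 838, 644, 670.5 and 745 CPM in KO (0.16 ± 0.19 SE). WT 1 was the lowest Smarca4 value and KO 1 the highest, and the other 6 lay between. The members' median itself moved between -0.24 (without KO replicate 2) and 0.14 (without WT replicate 2) as single libraries were left out, and its sign depended on the library: it was negative without WT 3 or WT 4 (-0.15 and -0.18) and positive without WT 1, KO 3 or KO 4 (0.05, 0.06 and 0.06).

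Footprints relative to RNA, the translational efficiency, passed the genotype test for none of the 38 members (edgeR quasi-likelihood test, 0 called, 0 at unadjusted p under 0.05, and 0 by limma-voom and by DESeq2). None of the 10863 genes tested passed in this comparison (0.0% in each direction, 14 at unadjusted p under 0.05). The members' median was 0.02, against 0.01 for all genes, and 19 members had an interval inside a 2-fold change. In data simulated at this size, 12 of 50 genes given a 2-fold fall and 11 of 50 given a 2-fold rise in this comparison were recovered. The simulation gave every gene the same fixed spread between libraries and no difference between cultures. The members' SE here had a median of 0.43 and ran from 0.21 to 0.96. The fit held the split of replicates as a term for footprints only. The RNA difference along that split therefore stayed in the spread behind these SE. The simulated recovery is therefore not that of these members. The smallest p belonged to Atrx (-0.97 ± 0.96 SE, adjusted p = 1.0) whose log2 ratio of footprints to RNA was 3.66, 2.48, 3.58 and 4.70 in WT and 4.00, 0.96, 3.56 and 4.67 in KO. KO 2 was the lowest of the 8, and without KO replicate 2 the difference was 0.70.

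Ezh1 was at 0.45 ± 0.61 SE for translational efficiency, with same-numbered differences of -0.02, 0.30, 0.33 and 0.49 when all 16 libraries were scaled together, as in the fit. Suz12 was at 0.41 ± 0.60 SE and was higher in KO in 4 of 4 pairs, by 0.67, 0.20, 0.34 and 0.26 on the same scaling. The log2 ratios were 0.91, -0.58, 1.22 and 1.71 in WT and 1.58, -0.38, 1.57 and 1.97 in KO, so the groups overlapped, and without WT replicate 2 the fitted value was -0.14. Brd3, a reader of acetylated histones, was at -0.15 ± 0.21 SE. Its RNA was 145, 165, 187 and 169 CPM in WT and 151, 145, 153 and 201 CPM in KO, and its footprints were 79.3, 76.9, 78.7 and 81.1 CPM in WT and 66.2, 59.5, 70.8 and 81.7 CPM in KO.

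Pair by pair, with each assay scaled on its own, the medians of the members were as follows. In footprints they were -0.10, -0.06, -0.01 and -0.01 for pairs 1 to 4, with 15, 14, 18 and 18 of 39 members higher in KO. The medians of all genes in footprints were -0.001, 0.02, 0.01 and 0.002. In RNA the members' medians were -0.12, -0.02, -0.09 and 0.03, with 15, 17, 14 and 21 of 38 higher. All genes had 0.02, 0.04, 0.003 and 0.001 in RNA. For translational efficiency the members had -0.03, -0.01, 0.08 and -0.01, and all genes -0.06, -0.004, 0.001 and 0.01. The share of all genes higher in KO was not taken for single pairs. Chd4 and Arid1a were higher in KO in 4 of 4 pairs in RNA and Ncor1 was lower. For translational efficiency Ash1l and Suz12 were higher in 4 of 4 and Chd7 was lower. With all 16 libraries scaled together, a scaling added after seeing the data, Ash1l and Suz12 were again higher in 4 of 4 (6.03% of all genes) and no member was lower in 4 of 4 (6.32%), since Chd7 pair 2 was at 0.01. The counts with each assay scaled on its own, 2 higher and 1 lower of 38 in both comparisons, stood beside 8.13% higher and 7.25% lower of all genes in RNA and 5.31% higher and 6.72% lower in translational efficiency.

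Many members differed between the sets of cultures. In footprints of replicates 3 and 4 against replicates 1 and 2, the split that the identifier length marks, 17 of 39 members were lower and 0 higher (edgeR quasi-likelihood test, 43.6% of members, against 11.5% of all genes called lower and 7.56% called higher). The members' median was -0.37, that of all genes 0.00 and that of the longest class of genes -0.18. In that class, which holds nearly all members, 18.9% of genes were called lower in footprints and 4.04% higher. The same split in RNA of the same cultures, compared after the footprint result was seen, gave 18 of 38 lower and 0 higher (47.4%, against 13.1% of all genes lower and 12.1% higher), with a median of -0.81 for the members and -0.37 for the longest class. In RNA 27.9% of genes in the longest class were called lower and 5.70% higher. The RNA libraries carry no such identifier by the labels, and identifier length and replicate set cannot be told apart in footprints. The 6 astrocyte markers summed to 244 to 519 CPM of footprints in replicates 1 and 2 and 27.9 to 88.8 CPM in replicates 3 and 4. In footprints 4 of the 5 astrocyte markers tested were called lower. Of the neural stem and progenitor markers, 5 of 13 were called lower and 0 higher, with a median of -0.55. The oligodendrocyte lineage had 2 of 6 lower and 0 higher (median -0.75), and neurons and neuroblasts 0 of 7 lower and 1 higher. The part of these markers in the result was not tested.

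The members that were lower in both assays numbered 12: Chd2, Chd6, Chd7, Arid2, Smarca2, Trrap, Ep300, Ncor1, Ash1l, Ezh1, Kdm6a and Tet2. They were 31.6% of the 38 members tested in both assays, where 6.78% of all genes were lower in both. The share of the longest class lower in both was not taken. Chd7, a remodeller of neural development whose loss causes CHARGE syndrome in people, had footprints of 314, 138, 100.4 and 93.2 CPM in WT and 228, 176, 100.5 and 70.9 CPM in KO. All 4 libraries of replicates 1 and 2 were above all 4 of replicates 3 and 4 (-1.23 ± 0.26 SE, adjusted p = 0.022, edgeR), and in RNA the difference was -1.60 ± 0.21 SE (adjusted p = 0.0074). The largest footprint differences were those of Smarca1 (-1.59 ± 0.39 SE), Ezh1 (-1.50 ± 0.33 SE) and Kdm6b (-1.35 ± 0.29 SE). Ezh1 footprints were 15.8, 9.35, 3.04 and 3.68 CPM in WT and 6.82, 12.1, 3.35 and 5.38 CPM in KO. Positive footprint differences, none of which passed, were seen for Chd3 (0.62), Ezh2 (0.55), Suz12 (0.53), Brd2 (0.50), Chd1 (0.32), Smarcc1 (0.32), Dnmt1 (0.31), Brd3 (0.16), Tet1 (0.04) and Chd9 (0.03).

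The number of members called lower depended on single libraries, since 4 stand against 4. In footprints it was 11, 6, 8 and 10 without KO replicates 1 to 4, and 3 and 5 without WT replicates 3 and 4. In RNA it was 11, 11 and 10 without KO 2, KO 4 and WT 4. Within either genotype alone, 2 cultures against 2, no member passed in either assay. The medians there were -0.40 in WT and -0.35 in KO for footprints, and -0.82 in WT and -0.71 in KO for RNA. Calls over all genes moved as well. Over the alternatives run, 0 to 3398 genes were called in footprints and 1 to 3788 in RNA. The counts of members called are therefore not a result about the members alone.

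**Figure D5:**
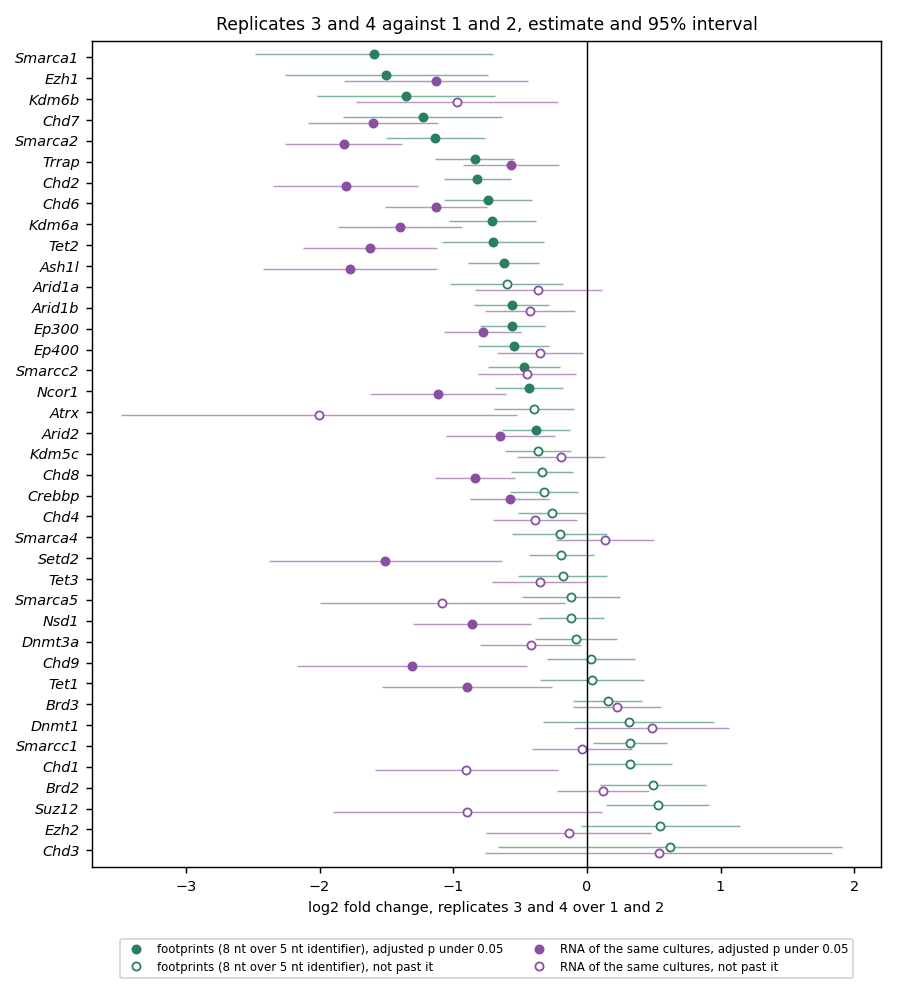
Log2 fold change of replicates 3 and 4 over replicates 1 and 2 with its 95% interval for each member, in footprints (green) and in RNA of the same cultures (purple). Filled circles passed adjusted p under 0.05 and open circles did not. All filled circles lie left of 0: 17 in footprints and 18 in RNA.

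The SD of log2 CPM over 8 libraries was larger in RNA than in footprints for 26 of 38 members, a share near the 67.7% of all genes. The median SD of the members was 0.50 in RNA and 0.29 in footprints, and that of all genes 0.45 and 0.36. In RNA, 15 of 38 members were higher in both replicate 2 cultures than in each of the other 6, where 15% of all genes were. They were Chd1, Chd2, Chd6, Chd9, Arid2, Smarcc1, Smarca5, Atrx, Ncor1, Nsd1, Setd2, Ash1l, Ezh2, Suz12 and Tet1. In footprints 6 of 38 showed this, namely Chd8, Arid1a, Smarca4, Ep400, Trrap and Kdm5c (5.68% of all genes). Smarca5 RNA was at 94.9, 309, 109 and 86.4 CPM in WT and 114, 300.4, 113 and 77.7 CPM in KO, while its footprints were at 187 to 269 CPM.

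One WT culture stood apart in both assays. In WT 1, Ezh2, Dnmt1, Smarca4 and Smarcc1 had their lowest value of 8 cultures in RNA and again in footprints, and 9 members had their highest (Chd7, Arid1b, Smarca2, Smarcc2, Ep300, Crebbp, Ezh1, Kdm6a and Kdm6b). These are 4 and 9 of 38 members, beside 18.0% and 17.1% of all genes that were lowest and highest in that culture in both assays. Dnmt1 had 215 CPM of RNA in WT 1 and 427 to 636 in the other 7, and 151 CPM of footprints against 355 to 421. Ezh2 had 75.0 CPM of RNA in WT 1 and 121 to 192 in the others, and 83.1 CPM of footprints against 166 to 261. The log2 ratio of Ezh2 to Ezh1 was 1.08 in RNA of WT 1 and 3.27 to 4.04 in the other 7, and that of Dnmt1 to Dnmt3a was -0.38 in WT 1 and 0.54 to 1.84 in the others. Mki67, a marker of dividing cells, had its lowest level in the same culture. It was at 65.4 CPM of RNA against 68.4 to 832 and 230 CPM of footprints against 455 to 1198. Mki67 is 1 of the 14 neural stem and progenitor markers. Nes, another of them, was also lowest in WT 1, at 1713 CPM of RNA against 1855 to 3107. Its footprints were 1241 CPM in WT 1 against 1513 to 2759. Sox2, Sox9, Egfr, Hes1 and Hes5 were instead highest in WT 1 in both assays, as was the sum of the 14. That sum was 11550 CPM of RNA against 7430 to 9039, and 15570 CPM of footprints against 8859 to 12826. The part of these markers in the values above was not tested.

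Other chromatin genes gave the wider setting. Of 108 further BAF, NuRD, Polycomb, acetyltransferase, methyltransferase, demethylase and DNA methylation genes, listed by family and not by their values, 107 were in the table and 105 were tested. None passed in KO against WT in RNA, footprints or translational efficiency, with medians of 0.00, 0.00 and 0.02. The smallest p of these belonged to the footprints of Kmt2e (-0.42 ± 0.17 SE) and Hdac4 (-0.53 ± 0.26 SE), both with adjusted p = 1.0. Their footprints relative to RNA were lower for 58 and higher for 27 of 105 (55.2% and 25.7%), with a median of -0.34. The families ran from 0 higher and 8 lower of 9 acetyltransferases and bromodomain readers to 7 higher and 6 lower of 17 other BAF subunits. The list of histone methyltransferases and their partners had 2 higher and 14 lower of 20. Along the split of replicates 3 and 4 against 1 and 2, 21 of the 105 were lower and 9 higher in footprints. The other histone demethylases had 9 of 11 lower in footprints and 7 of 11 lower in RNA, with medians of -0.56 and -0.62.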

How the data were processed

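Counts were estimated per gene by the authors (RSEM 1.2.11, TopHat2 2.0.9, Bowtie2 2.1.0, cutadapt 1.7.1 and build mm10, per the submitters' processing notes, with no role or order given) and were deposited as whole-number estimated counts. A second deposited table holds TPM rounded by the authors to whole numbers, treated as a score and used only for levels per length and paralog ratios. Strand handling and identifier collapsing were not given in the sources used here. Rows without a gene symbol (27 of 20436, 0.244% to 0.422% of counts) were left out.

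The main test, run on every gene with only the members printed, was edgeR 4.0.16's quasi-likelihood test under R 4.3.3 (filterByExpr, TMM, two-sided, Benjamini-Hochberg adjustment over the genes tested, threshold 0.05). RNA was fitted with genotype alone, and footprints with genotype and identifier length. Translational efficiency was the assay by genotype interaction over 16 libraries, with identifier length as a term within footprints only. Footprints against RNA used the culture as a block. DESeq2 1.42.0 and limma 3.58.1 were alternatives, and the fits were tested on simulated data. SE come from the F statistic. Log2 CPM used a prior count of 2.

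Replicate numbers in the titles were taken to pair the cultures: deviations from group means correlated between same-numbered cultures at 0.481 to 0.613 in RNA and 0.379 to 0.54 in footprints, and between other numbers at up to 0.368 and 0.453. Named in full were the 4 members with the smallest p in each genotype comparison, the 3 highest and 3 lowest in footprints over RNA, and the paralog pair with the smallest p. Smarca5, Dnmt1, Ezh2, Mki67 with the stem markers named beside it, and the promoter windows printed or named were picked with their values in view. The members and lists were chosen with earlier results of these data known.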

Additional observations from a re-analysis of the deposited data

Results flagged for a closer look

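The 13 members named in full were checked in each genotype and assay, 52 groups of 4 libraries. In 10 groups 1 library lay far from the other 3 by Dixon's ratio test on untransformed CPM. For normally distributed values the test flags about 1 in 20 groups by chance, and CPM need not follow that distribution. These members were also named for small p or extreme ratios, which single high libraries can produce, and they share libraries. The 10 can therefore not be read against that rate. All were high values, and 9 of the 10 were RNA. Untransformed CPM stretch the high end relative to a log scale, so the direction is not read as a result.

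Among KO RNA libraries, replicate 2 was high for Atrx (176.6 CPM against 10.7 to 22.35 in the other 3), Setd2 (206 against 35.5 to 57.1) and Suz12 (113 against 31.7 to 44.4). WT RNA 2 was high for Smarca1 (8.45 against 0.157 to 1.57). Replicate 1 was high for Kdm6b RNA in WT (606.5 against 169 to 236) and in KO (425 against 158 to 202), and for Tet3 RNA in KO (306 against 199 to 209.6). KO 4 was high for Chd3 in RNA (255.5 against 54.2 to 67.0) and in footprints (42.3 against 8.87 to 13.9), and for Brd3 in RNA (201 against 145 to 153). The cause of these values was not tested.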

How the results depend on the processing

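No member was called in KO against WT under 19 alternatives in RNA, 17 in translational efficiency and 18 of 19 in footprints; DESeq2 called 1 member lower in footprints, Smarca1. With the replicate number as a block, 0 members were called in RNA, footprints and translational efficiency (medians -0.05, -0.05 and 0.01) and the block changed no member's call, while Fmr1 in footprints lost its call (adjusted p = 0.14). For paralog ratios the block leaves 4 pairs and a smallest p of 0.125, so its 0 calls were fixed by the design. Of all genes, 1 was called in RNA (20 with DESeq2, 0 with the block) and 4 in footprints (82 with DESeq2, 0 with the block). Leaving out single libraries moved the members' median over -0.24 to 0.14 in RNA, and over -0.11 to 0.17 in translational efficiency. In replicates 3 and 4 alone, signs turned for Atrx RNA (-0.094), Smarca4 RNA (-0.033) and Atrx translational efficiency (0.037). Leaving out single libraries moved Atrx RNA over -0.70 to 1.46, Ezh1 RNA over -0.67 to 0.14, Atrx translational efficiency over -1.51 to 0.70 and that of Suz12 over -0.14 to 1.00. The cause was not tested.

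Footprints against RNA gave 5 to 8 members higher and 22 to 27 lower over 16 alternatives, among them 5 higher and 22 lower with no replicate block. For replicates 3 and 4 against 1 and 2 in footprints, DESeq2 called 3 members higher, the number lower was 3 to 20 and the number higher 0 to 1 as single libraries were left out (median -0.38 to -0.34), and 0 were lower in WT alone (median -0.40) and 0 in KO alone. In RNA 10 to 20 were lower (median -0.84 to -0.65) and 0 in each genotype alone, where only 4 libraries remain. Of all genes, 0 to 3398 were called in footprints and 1 to 3788 in RNA over the alternatives for this split. Paralog ratios gave 11 to 12 pairs called in RNA and 13 in footprints. Intervals cover the spread between cultures only, and RNA of Ezh1, Tet1 and Chd9 rests on few counts.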
